A study of Mus musculus with 2 samples.

Results

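The genes described here encode the T cell receptor complex and the proteins that act directly on or just after it: the CD3 chains, the coreceptor CD4, the proximal kinases and phosphatases, the adaptors, the exchange factors and lipid enzymes, and the calcium and NFAT branch. Of 43 listed symbols, Gads is an alias of Grap2, which left 42 genes. Of these, 41 were measured and Lck, the Src family kinase bound to CD4, was not analysed here. For each gene the transcript cluster, the array's unit of measurement for a gene, with the highest mean was taken among clusters with 1 gene symbol. The 41 genes stand among 19938 such genes in all. Each passed the filter on low values, a mean log2 signal of 7.71 over both arrays, as 10457 genes did.

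Total RNA was taken from CD4 T cells of mouse spleen, with 1 array for a Taf7 -/- sample and 1 array for a Taf7 +/- sample. Taf7 encodes a subunit of TFIID, the general transcription factor that assembles at core promoters. Both genotypes carried 1 floxed and 1 null Taf7 allele on a mixed C57/BL6 and 129 background, and they differed in the Cre transgene, labelled 8EIII-cre, which the knockout carried and the heterozygote did not. The sources used here do not state which cells express this transgene, how many mice were used, their age or whether animals were pooled. Flow sorting selected cells bright for CD4 and for the beta chain of the receptor, enriched for naive cells by low CD44. Whether this sort bears on the transcript signals of Cd4 and of the CD3 chains, which reach the surface together with the receptor, was not tested.

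Peptide bound to an MHC molecule engages the T cell receptor, and Src family kinases then phosphorylate tyrosines in the CD3 and zeta chains. Zap70 docks there and phosphorylates the adaptors LAT and SLP-76, on which phospholipase C gamma 1, Vav1 and Grb2 family proteins gather. Diacylglycerol from the phospholipase leads to Ras and protein kinase C theta, and inositol trisphosphate leads to calcium entry, calcineurin and NFAT. Phosphatases, ubiquitin ligases and diacylglycerol kinases set the threshold for this cascade.

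The deposited values were log2 signals, with a median of 7.68 on the heterozygous and 7.75 on the knockout array. Taf7 itself went from 8.34 on the heterozygous to 7.79 on the knockout array, a log2 difference of -0.55. Whether its probes cover the deleted exons is not stated in the sources used here, so this value is a weak check of the genotype. Defining T cell genes were detected on both arrays, and the 7 measured markers of the T cell list, 4 of which also belong to the signalling genes, lay between 12.1 and 13.5 in the heterozygote. Of other cell types, 1 of 9 B cell, 1 of 13 myeloid, 2 of 9 natural killer cell, 2 of 6 red cell and platelet, 1 of 2 CD8 T cell and 1 of 2 gamma delta T cell markers were above the filter. Because each genotype has 1 array, the error of a difference is unknown and none was tested. Genes were instead counted past 1.5-fold, past 2-fold, and past a smaller log2 difference of 0.32.

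The receptor signalling genes differed little between the knockout and the heterozygote, and the few larger differences were all towards lower signal in the knockout. At 1.5-fold, 2 of 41 genes were lower (4.88%), against a background of 3.17% of all genes above the filter, and none was higher, against 0.449%. The 2 genes were Trat1 and Ubash3b. Past 0.32, 5 of 41 were lower (12.2%), against 13.3% of all genes, and none was higher, against 5.03%. Cd3d, Ptprj and Sit1 joined the first pair at that size, Ptprj having passed the filter only through the heterozygous array. Both shares of lower genes lay near their backgrounds. With the filter raised to the 75th percentile of signal, 40 members remained, of which 2 were lower past 1.5-fold (background 1.89%) and none higher (0.288%), while 4 were lower past 0.32 (10.3%) and none higher (1.95%). No member reached 2-fold, which 0.325% of all genes did on the lower and 0.0383% on the higher side.

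The median log2 difference of the 41 genes was -0.06, next to -0.05 over all genes above the filter, with 23 genes lower and 18 higher. Their differences were mostly small. Of the 41, 29 (70.7%) were within 1.1-fold, compared with 46.0% of all genes above the filter, and the median size of a difference was 0.08 against 0.15. Above the filter, differences were smaller at higher signal. Their median size was 0.15 over all these genes, 0.12 above the 75th percentile and 0.11 at a mean of 11 or more. The members are strongly expressed, with a median signal of 11.8 against 9.74 for all genes above the filter. Among genes with a mean signal of 11 or more, 74.2% of the 31 members and 61.8% of all 2020 genes were within 1.1-fold. In bulk samples, fewer cells of a type and less RNA per cell cannot be told apart.

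**Figure D1:**
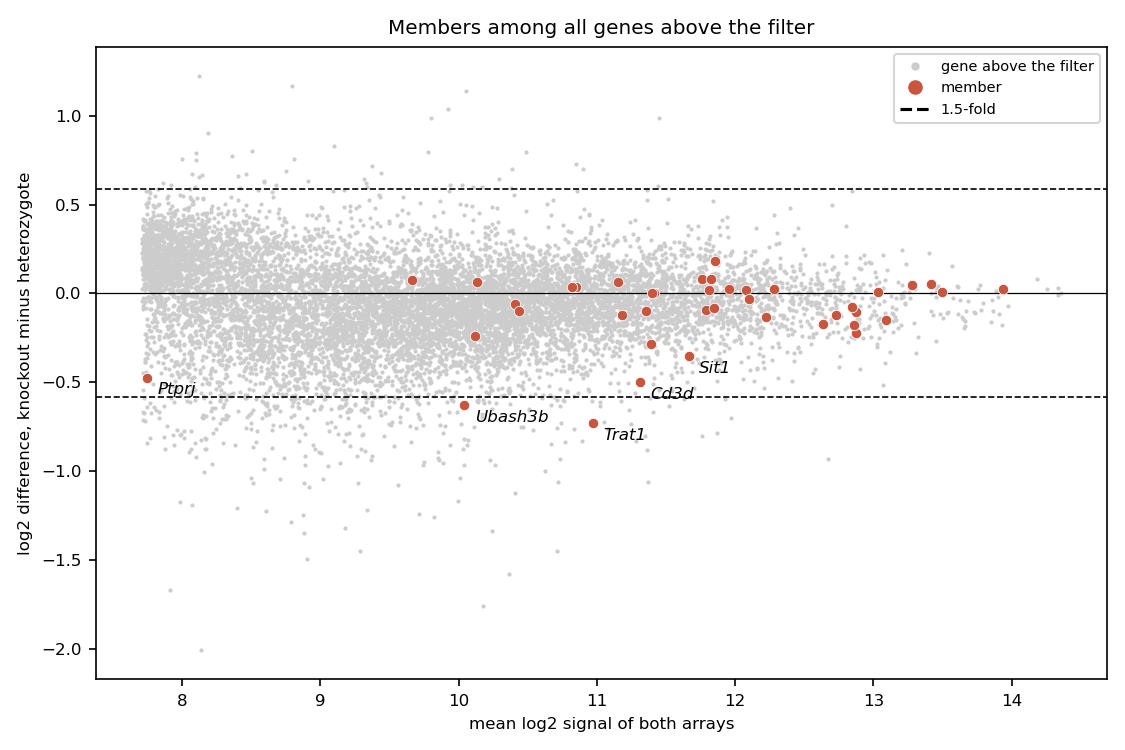
The log2 difference, knockout minus heterozygote, is plotted against the mean log2 signal of both arrays for the 10457 genes above the filter (grey) and the 41 receptor signalling genes (red), with dashed lines at 1.5-fold. Trat1 and Ubash3b lie below the lower line, and most of the red points lie close to 0.

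Trat1 encodes TRIM, a transmembrane adaptor that associates with the T cell receptor, and it had the largest difference of the 41. Its log2 signal of 11.34 on the heterozygous array compared with 10.61 on the knockout array, which is -0.73 or 1.66-fold lower. It ranked 148 from the lowest of 10457 genes. Next came Ubash3b, which encodes Sts-1, a phosphatase that acts on Zap70. Ubash3b had signals of 10.36 and 9.73, a difference of -0.63 or 1.55-fold lower, and ranked 252 from the lowest. It was within 1.5-fold after the median difference of all genes was subtracted (-0.58), after a loess trend with signal was removed (-0.54) and after quantile normalization (-0.54), while Trat1 lay between -0.73 and -0.67 in every setting run. The paralog Ubash3a, which encodes Sts-2, was at 0.02, with signals of 11.80 and 11.82. These sister genes had unlike differences on these arrays.

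Because Taf7 belongs to a factor that binds core promoters, the start region of these genes is shown, from 100 bases before the RefSeq start of transcription to 30 bases from it, in build GRCm38.p6 of the RefSeq promoter table. Trat1 (chr16:48772033-48772162, minus strand) and Ubash3b (chr9:41158033-41158162, minus strand, the first of its listed starts) are the genes past 1.5-fold, and Ubash3a (chr17:31207966-31208095, plus strand) is the paralog near 0. Capitals mark matches on either strand to 4 short motifs. The letters TATAAA of the TATA box were searched at any position, so a match is not by itself a TATA box. The core bound by ETS factors was searched as TTCCTG. For Runx factors the letters of the core were TGTGGT. The GC box that SP factors bind was searched as GGGCGG.
Trat1: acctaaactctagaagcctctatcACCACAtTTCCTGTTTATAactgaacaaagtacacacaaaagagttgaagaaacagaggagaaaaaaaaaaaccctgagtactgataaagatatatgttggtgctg
Ubash3b: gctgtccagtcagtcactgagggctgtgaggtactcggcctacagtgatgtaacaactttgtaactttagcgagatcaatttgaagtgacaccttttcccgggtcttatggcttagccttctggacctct
Ubash3a: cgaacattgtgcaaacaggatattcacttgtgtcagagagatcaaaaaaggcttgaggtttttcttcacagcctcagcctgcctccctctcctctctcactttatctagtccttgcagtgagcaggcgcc
The Trat1 window holds a Runx-type match that begins 76 bases before the start, an ETS-type match at 69 bases and TTTATA, the reverse complement of TATAAA, at 63 bases, and none of these overlap. Neither Ubash3 window has a match to these letters. Both genes have an ETS-type match in the longer promoter described next, which for Ubash3b can be that of any of its listed starts. Over 250 bases before to 50 after the start, the RefSeq table held 51 promoters for 35 of the measured genes. The TATA box letters were found in 11.8% of the 51 and in 13.6% of all 32851 promoters, and the Runx core in 11.8% and 16.8%. The ETS core was found in 43.1% and 30.6%, and the GC box in 45.1% and 35.7%. These shares are descriptions, and several genes contribute more than 1 promoter.

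The CD3 chains carry the receptor's signalling motifs and are needed for its assembly at the surface. In the order heterozygote and knockout, Cd3e had log2 signals of 13.49 and 13.50, a difference of 0.01. Cd3g had 13.39 and 13.45, a difference of 0.05. Cd247, the gene of the zeta chain, had 12.07 and 12.09, a difference of 0.02. Those 3 chains were nearly level between the arrays, and Cd3d stood apart from them. Its signals were 11.56 and 11.06, a difference of -0.50 or 1.42-fold lower, rank 534 from the lowest. Cd4 had signals of 12.99 and 12.77, a difference of -0.22, and Cd2, an adhesion receptor that adds to the signal, was at -0.17.

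Cd3g, Cd3d and Cd3e follow each other in the reference gene order of chromosome 9. Cd3g and Cd3d are transcribed away from each other from starts 1355 bases apart, yet their differences were 0.05 and -0.50. Their start regions are shown for this reason, with that of Cd3e, over the same window, with capitals as before: Cd3g (chr9:44980402-44980531, minus strand), Cd3d (chr9:44981686-44981815, plus strand) and Cd3e (chr9:45009582-45009711, minus strand).
Cd3g: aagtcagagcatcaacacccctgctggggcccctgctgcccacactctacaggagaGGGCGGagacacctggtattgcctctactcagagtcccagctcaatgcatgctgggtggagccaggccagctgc
Cd3d: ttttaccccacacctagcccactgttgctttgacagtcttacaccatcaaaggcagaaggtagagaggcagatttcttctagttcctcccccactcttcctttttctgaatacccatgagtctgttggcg
Cd3e: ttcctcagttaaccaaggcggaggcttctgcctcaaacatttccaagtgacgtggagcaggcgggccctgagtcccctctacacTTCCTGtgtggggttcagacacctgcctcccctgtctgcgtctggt
The Cd3g window has a GC box match that begins 44 bases before the start, and the Cd3e window an ETS-type match at 16 bases. The Cd3d window has none of the 4 motifs, although Cd3d too has an ETS-type match in the longer promoter. The letters are set beside the values as a description of the genes.

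**Figure D2:**
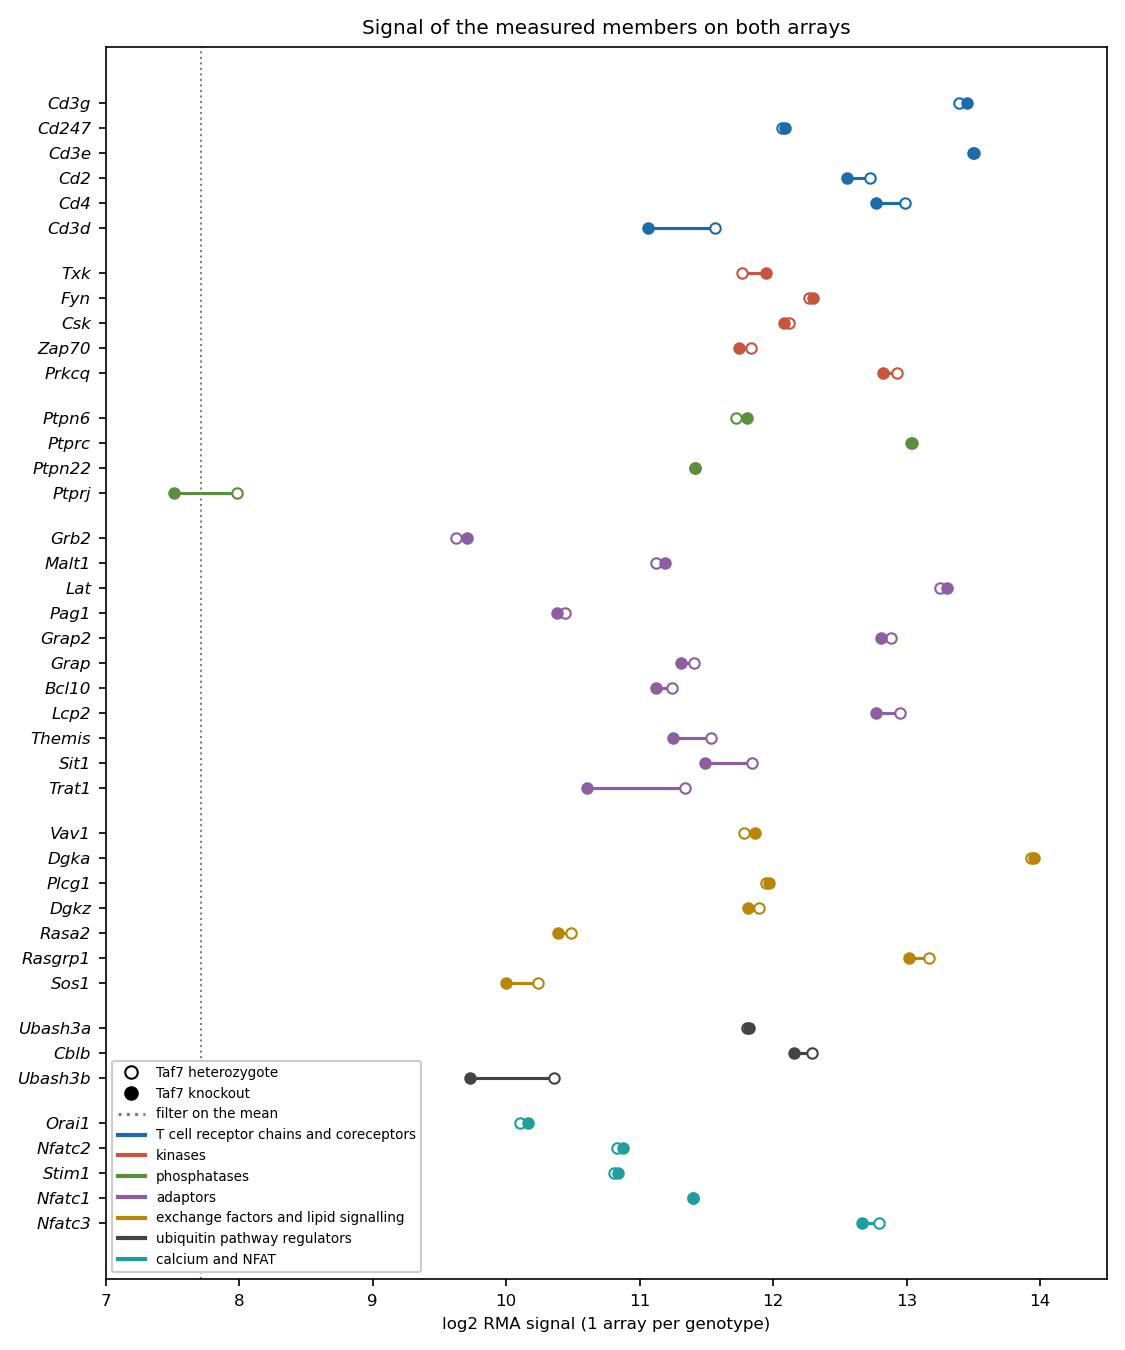
The log2 signal of the 41 measured genes is plotted on the heterozygous (open) and the knockout array (filled), grouped by role, with the filter value as a dotted line. Levels of different genes are from different probes and are not comparable, but the distance within a gene is longest for Trat1, Ubash3b, Cd3d and Ptprj.

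The 5 measured kinases differed by at most 0.18. Txk, a Tec family kinase of T cells, was the highest of all 41 genes, with signals of 11.77 and 11.95 and a difference of 0.18, which is 1.13-fold. Zap70, the kinase that docks on the phosphorylated CD3 and zeta chains, was at -0.09. Prkcq, which encodes protein kinase C theta, was at -0.11. Fyn, a Src family kinase, was at 0.03 and Csk, which restrains Src family kinases, at -0.03. The sign of Csk turned in 3 of the other settings, where it lay at up to 0.03, so it has no settled direction.

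Among the 4 phosphatases, 3 were nearly level and 1 was lower. Ptprc, which encodes CD45, the phosphatase that activates Src family kinases, was at 0.01. Ptpn22, an inhibitory phosphatase, was at 0.00. Ptpn6, which encodes SHP-1, had signals of 11.72 and 11.80, a difference of 0.08. Ptprj, which encodes the receptor-type phosphatase CD148, had 7.99 and 7.51, a difference of -0.47. The knockout value of Ptprj lay below the filter value, and the gene passed only through the heterozygous array. Its other cluster also had a lower signal in the knockout, with a difference of -0.28 and both values below the filter.

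Of the 11 adaptors, 8 had a lower signal in the knockout (72.7%, against 59.1% of all genes above the filter), with a median difference of -0.10. After Trat1 the lowest were Sit1 and Themis. Sit1, a transmembrane adaptor that binds the phosphatase SHP-2, had signals of 11.84 and 11.49, a difference of -0.35 or 1.28-fold lower. Themis, needed for the selection of thymocytes, had 11.53 and 11.25, a difference of -0.29. The scaffold at the centre of the cascade differed less. Lat was at 0.05, Lcp2, which encodes SLP-76, at -0.18, and Grap2, which links the 2 proteins, at -0.08. The related adaptor Grap was at -0.10 and Pag1, which anchors Csk at the membrane, at -0.06. Grap2 and Pag1 were just above 0 after quantile normalization, at 0.00 and 0.02, and Pag1 was at 0.02 after removal of the loess trend.

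Grb2, the adaptor that brings the exchange factor Sos1 to LAT, had signals of 9.63 and 9.70, a difference of 0.08. Sos1 itself had 10.24 and 9.998, a difference of -0.24 and the seventh lowest of the 41. Bcl10, at -0.12, and the paracaspase Malt1, at 0.06 with signals of 11.12 and 11.19, are partners in the complex that leads to NF-kB. Differences of this size are common on these arrays, where the median size over all genes above the filter was 0.15.

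Genes of the lipid and Ras steps differed by at most 0.24. Plcg1, the phospholipase, was at 0.02. Vav1, an exchange factor that acts on the cytoskeleton, had signals of 11.78 and 11.86, a difference of 0.08. Rasgrp1, the Ras exchange factor that responds to diacylglycerol, was at -0.15, and Rasa2, which turns Ras off, at -0.10. The diacylglycerol kinases, which oppose Rasgrp1, were at 0.03 for Dgka and -0.08 for Dgkz. Dgkz had signals of 11.89 and 11.81 in the cluster used, and its other cluster, with 8.37 and 8.39, was at 0.03, so its clusters disagree in sign. Cblb, a ubiquitin ligase that dampens receptor signals, was at -0.14.

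The calcium and NFAT genes were the most level of the roles, with all 5 within 1.1-fold. Stim1, the calcium sensor of the endoplasmic reticulum, was at 0.03. Orai1, the channel that it opens, had signals of 10.10 and 10.17, a difference of 0.06. The NFAT transcription factors Nfatc1, Nfatc2 and Nfatc3 were at -0.00, 0.04 and -0.12, and Nfatc1 was at 0.05 after each of the 3 scalings.

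Genes were also grouped by effect on the signal, a grouping chosen after the values had been seen. The 11 genes known as inhibitors (Csk, Pag1, Sit1, Ptpn6, Ptpn22, Ubash3a, Ubash3b, Cblb, Dgka, Dgkz and Rasa2) had a median difference of -0.06, and 7 of them were lower. The other 30 genes had a median of -0.04, and 16 of them were lower. Ptprj, at -0.47, was counted with these 30, and how near the 2 medians lie depends on such assignments. Of the 2 genes past 1.5-fold, Ubash3b belongs to the first group and Trat1 to the second.

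Genes further along the pathway were listed in 7 groups, chosen with earlier results of these data known. In all, 146 of 159 measured genes were above the filter. At 1.5-fold, 5 of the 146 were lower (3.42%) and none higher, against 3.17% and 0.449% of all genes. Past a log2 difference of 0.32, 22 were lower (15.1%), near the 13.3% of all genes, and again none was higher, against 5.03%. Gab2, at 0.36, was not counted because its mean of 7.66 lay just below the filter. These counts depended on the scaling. After the median difference was subtracted, 3 genes were lower past 1.5-fold, a size that 2.35% of all genes reached. Past 0.32, 13 were then lower (8.90%, against 10.4% of all genes) and 2 higher, against 7.69%. Removal of the loess trend gave 3, 12 and 1, against 2.59%, 10.4% and 4.91% of all genes. Quantile normalization gave 3, 12 and 2, against 2.35%, 9.69% and 5.77%. In both, the 12 genes were 8.22% of the 146.

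Other receptor and coreceptor genes included 2 receptor alpha chain variable segments past 1.5-fold, Trav12-2 at -0.70 and Trav7d-4 at -0.70, while 4 other Trav segments lay between 0.01 and 0.15. Trav segments have near-identical copies, so their values are uncertain. Cd28, the main costimulatory receptor, was at -0.42, with signals of 12.37 and 11.95. The other 2 groups with genes past 1.5-fold were the proximal kinases and adaptors and the cytoskeleton. Of 22 kinases and adaptors, 20 were lower, with a median of -0.13, where 59.1% of all genes were lower and the median was -0.05. The count of 20 is for the deposited values only, and the sign of a gene near 0 can turn with the scaling. They included Sh2d1a, which encodes the adaptor SAP, at -0.64, Unc119 at -0.59 and Sla, which encodes the inhibitory adaptor SLAP, at -0.50. Unc119 passed the filter only through the heterozygote, with signals of 8.22 and 7.63. Syk, Themis2 and Gab2, the kinases and adaptors below the filter, were at 0.13, 0.31 and 0.36. Of 27 cytoskeletal genes, Vav3, a relative of Vav1, was at -0.60, and Rhoh, a GTPase that supports Zap70, at -0.42.

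The calcium to NFAT group held no gene past 1.5-fold, but 6 of its 26 genes were lower past 0.32, a size that 13.3% of all genes reached, and they included every measured calcineurin subunit. Calcineurin is the phosphatase that releases NFAT into the nucleus. Its catalytic subunit genes Ppp3ca and Ppp3cb were at -0.39 and -0.38, and Ppp3r1, a regulatory subunit, was at -0.36. The third catalytic gene, Ppp3cc, named after its values were seen, was at -0.34. The genes past 0.32 that are not calcineurin subunits were Gsk3b at -0.36 and Kcnn4 at -0.35, also named after their values were seen. The group had 2 of 26 genes lower past 0.32 after the median difference was subtracted, where 10.4% of all genes were. It had 1 of 26 after removal of the loess trend (10.4% of all genes) and 1 of 26 after quantile normalization (9.69%). These were calcineurin genes in each case, and the group then held no larger share than all genes. The 4 subunits lay between -0.34 and -0.29 after the median difference was subtracted, between -0.34 and -0.28 after removal of the loess trend and between -0.33 and -0.27 after quantile normalization. Stim1 and Orai1, which act before calcineurin, and the 3 NFAT genes, which act after it, lay between -0.12 and 0.06.

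The remaining 3 groups had no gene past 1.5-fold, and 1 to 3 genes each past 0.32. Of 24 other negative regulators, Ptpn2, a phosphatase of receptor signals, was at -0.41 and Ptpn7, a phosphatase of MAP kinases, at -0.38. Of 12 genes from Ras to ERK, Rasgrp4 was at -0.43. Of 23 genes from CARMA1 to NF-kB, Ube2n was at -0.35, Tab1 at -0.33 and Prkcb at -0.32.

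**Figure D3:**
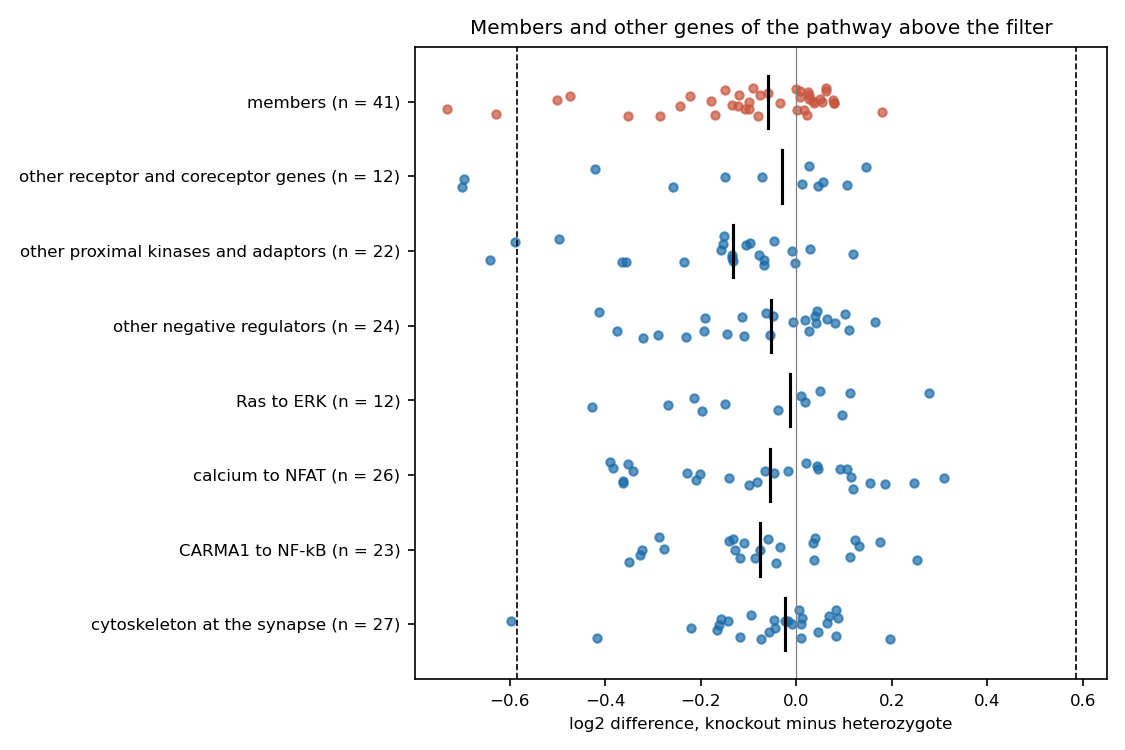
Each point is the log2 difference, knockout minus heterozygote, of 1 gene above the filter, for the 41 receptor signalling genes (red) and 7 groups of other pathway genes (blue). Black bars are medians, dashed lines are 1.5-fold, and no gene of any group passes the line on the higher side.

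Markers of regulatory T cells were also lower in the knockout, and the part of T cell states in the differences above was not tested. Of 10 measured markers of regulatory T cells, 8 were above the filter, and 6 of these were lower by at least 1.5-fold, a size that 3.17% of all genes reached. Nrp1, among the 6, passed the filter only through the heterozygote, with signals of 8.75 and 7.08. Foxp3, the factor that defines regulatory T cells, had signals of 11.25 and 10.19. The summed signal of the 10 markers, as a log2 value, was 13.9 in the heterozygote and 13.2 in the knockout. Of 8 markers of memory or activated cells 5 were above the filter, 4 lower and Id2 higher at 0.12, and the summed signals of the 8 were 12.97 and 12.79. Cd44, whose protein was used for the enrichment, was 2.55-fold lower, from 9.56 to 8.21. The gamma delta T cell marker Sox13 was at 0.33. Of the 7 T cell markers, Thy1 was at -0.93, from 13.14 to 12.21, and the other 6 lay between -0.17 and 0.05.

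The place of some genes changed with the setting. Ptprj ranged most, from -0.62 after removal of the loess trend to -0.38 with its clusters averaged, and it lay below Ubash3b after that removal and after quantile normalization. Txk was between 0.18 and 0.23.

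**Figure D4:**
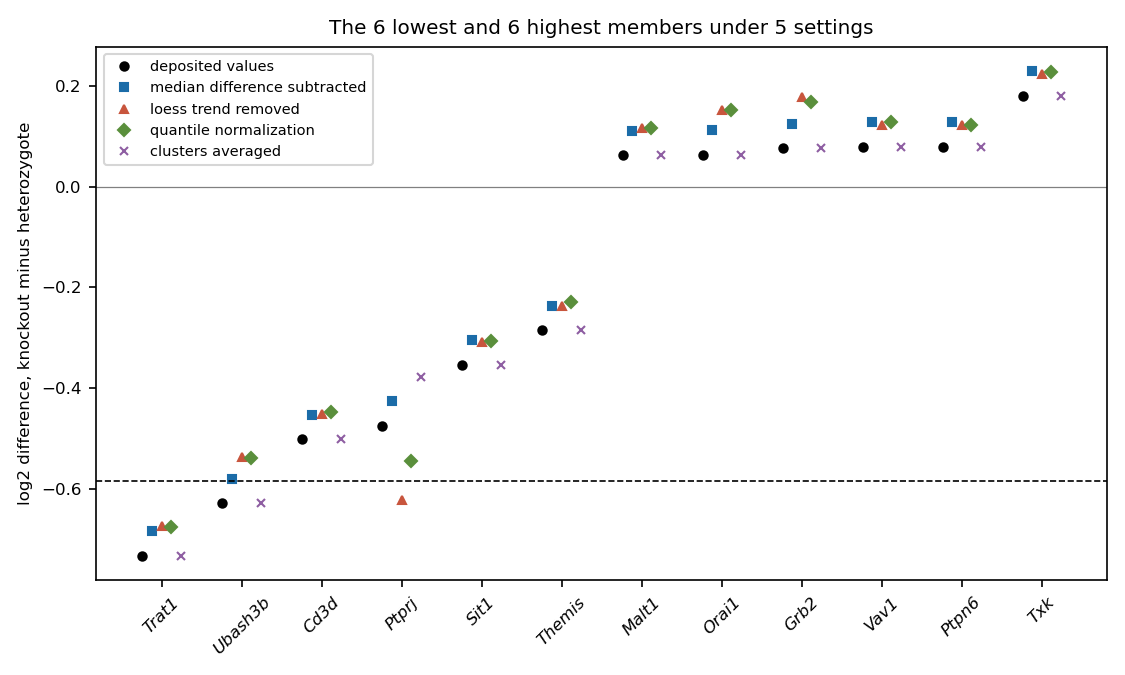
The log2 difference, knockout minus heterozygote, of the 6 lowest and 6 highest of the 41 genes is plotted under 5 settings, with a dashed line at 1.5-fold lower. Trat1 is past the line in all 5, Ubash3b in the deposited values and with clusters averaged, and Ptprj after removal of the loess trend. The knockout signal of Ptprj lay below the filter value.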

How the data were processed

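Gene expression was measured with 1 array per genotype, so samples were compared without replicates and no test was run. The deposited values are log2 signals made by the authors with RMA in Affymetrix Expression Console version 1.1, for the core gene set, per the submitters' processing notes and the design text of the series. That text speaks of an exon array, but the identifiers match the table of a gene-level array, and this was not settled. No genome build is stated in the sources used here.

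Of 35556 clusters, 21789 had 1 symbol, 1621 several and 12146 none. The cluster of highest mean was used per gene, and the filter was the 50th percentile of the mean over all clusters. Differences are knockout minus heterozygote with no further normalization. Promoter sequences are RefSeq's, matched by symbol. The members and lists were chosen with earlier results of these data known. All members were named, with both signals for the 6 at each end, the CD3 chains, Cd4 and any with discordant clusters, and for each other list up to 3 genes at each end past a log2 difference of 0.32; further names are said to be chosen later. The procedure was tested on simulated data with planted differences of 2-fold, a size that no member reached. That test says nothing of smaller differences. Its simulated noise was also well below the spread of the real differences, so recovery was nearly certain in advance. Alternatives were centring, a loess trend (span 0.3), quantile normalization, other filters, averaged clusters, means and other fold sizes. Precision is limited by the number of arrays. The tools were statsmodels 0.14.6, pandas 2.3.3 and numpy 2.4.6 under Python 3.11.15.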

Additional observations from a re-analysis of the deposited data

How the results depend on the processing

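No paired analysis was possible because a single array stands for each genotype, and no array could be left out. The count of genes at least 1.5-fold lower was 2, and it was 1 (Trat1) after the median difference was subtracted and 1 (Trat1) after quantile normalization. It stayed at 2 after removal of the loess trend, but with Ptprj in place of Ubash3b. Ptprj passed the filter only through the heterozygous array. With other sizes it was 5 past a log2 difference of 0.32 and 0 at 2-fold. By construction, a larger size cannot give a higher count. No setting gave a gene at least 1.5-fold higher. Past 0.32, Sit1 was no longer counted after any of the 3 scalings, which left 4 genes. The median difference of -0.06 was -0.010 after the median difference was subtracted, 0.0053 after the loess trend was removed, 0.025 after quantile normalization and -0.10 as a mean; these scalings also bring the median of all genes to between -0.00 and 0.01. With filters at the 25th or 75th percentile or on both arrays, no filter or averaged clusters it moved by less than 0.035, the robust SD of all genes over the root of the member count. Of 164 values of single genes under 4 settings, none moved by more than 0.22, the robust SD of all genes, and 9 changed sign, those of Csk, Grap2, Nfatc1 and Pag1. Many of these values had little room to move. Subtracting the median shifts all genes alike, and averaging clusters can change only the 2 genes with several clusters. The bound of 0.22 is also larger than the median size of a member's difference, 0.08.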

Other observations

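Near the CD3 genes on chromosome 9, the 10 protein-coding genes on each side in the reference order included 14 above the filter. Their median difference was -0.00, with 1 gene at least 1.5-fold lower and none higher, where 3.17% and 0.449% of all genes were. Chosen after their values were seen, Mpzl3, an immunoglobulin superfamily adhesion gene, was the lowest at -0.65 and Kmt2a, a histone methyltransferase gene, the highest at 0.48. Past the smaller log2 difference counted above, 2 of the 14 were lower and 1 was higher. Cd3d at -0.50 lay inside the range of its neighbours, but at most 2 of them were as low. Whether its difference is usual for this region was not tested.

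Other pathway genes, chosen after their values were seen, include the Ras exchange factors Sos2 at -0.27, Rasgrp2 at 0.28 and Rasgrp4 at -0.43. Nfkbia, an inhibitor and target of NF-kB, was at 0.25 and Rel, an NF-kB subunit, at -0.28. The inositol trisphosphate receptor Itpr3 was at 0.25 and Nfat5 at 0.31, the highest values of the calcium group among genes above the filter.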
